A study of Mus musculus with 3 samples.

Results

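The genes described here are 10 neighbours of Gja1 on mouse chromosome 10, namely Hsf2, Serinc1, Pkib, Fabp7, Smpdl3a, Tbc1d32, Msl3l2, Man1a, Mcm9 and Asf1a. They were chosen by position and from a given list, because Gja1, the gene of connexin 43, is the deleted gene of the study and a deletion allele is carried together with the DNA beside it. The files held a matched transcript for 29787 genes, of which 16604 reached 1 count per 1000000 library reads (CPM) in at least 1 library, and all 10 neighbours were among these. RNA-seq had been done on brain vessels of mice aged 3 months, with 1 library per group. The Cx43-deleted mice carried floxed Cx43 alleles and a Cre transgene driven by the human GFAP promoter (hGFAP-Cre/Cx43fl/fl, genotype Cx43 -/-) on a C57BL6-BALB/c background. The 2 references were WT mice of the C57BL6-BALB/c background, which the Cx43-deleted mice share, and WT mice of the C57BL6 background. The sources used here do not give how many animals supplied the RNA of a library.

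Connexin 43 forms gap junctions and hemichannels, and in the brain it is abundant in astrocytes, whose endfeet cover the vessels. A floxed allele is made by homologous recombination in embryonic stem cells of some mouse strain, and in later crosses the DNA next to the altered exon is inherited with it. Neighbouring genes of such an allele can therefore be of another strain than in the wild type, and targeting itself can alter the regulation of genes nearby. The human GFAP promoter drives Cre in radial glia during development, so that the deletion reaches astrocytes and also neurons and oligodendrocytes that descend from these cells, while cells outside this lineage keep the gene. In this design the deletion, the Cre transgene, the flanking DNA of the floxed allele and the library itself cannot be told apart. Between the WT libraries, the background and the library cannot be told apart either. There were no replicates, so no difference below has a test, and each interval is a 95% interval for counting error alone.

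The libraries held 54975610 reads for the Cx43-deleted mice, 21170766 for the C57BL6-BALB/c WT mice and 24830975 for the C57BL6 WT mice. A level of 1 CPM therefore stood for 53.6 counts in the Cx43-deleted library, 21.2 counts in the C57BL6-BALB/c WT library and 25.4 counts in the C57BL6 WT library. A gene with several transcripts can have fewer reads than this, because a read can be counted on more than 1 transcript. A count of 0, which allows up to 3 reads, allowed 0.0559 CPM in the Cx43-deleted library, 0.142 CPM in the C57BL6-BALB/c WT library and 0.118 CPM in the C57BL6 WT library. Markers of vessel cells and of other brain cells were all detected in each library, at levels that differed between the libraries. The 14 endothelial markers summed to 8302 CPM in the Cx43-deleted library, 7760 CPM in the C57BL6-BALB/c WT library and 12437 CPM in the C57BL6 WT library. The 18 astrocyte markers summed to 5030 CPM in the Cx43-deleted library, 5356 CPM in the C57BL6-BALB/c WT library and 6118 CPM in the C57BL6 WT library. The 8 oligodendrocyte markers summed to 13347 CPM in the Cx43-deleted library, 13823 CPM in the C57BL6-BALB/c WT library and 17236 CPM in the C57BL6 WT library, so that the preparation held RNA of cells beside the vessels. Most of each sum came from Mbp, at 11585 CPM in the Cx43-deleted library, 12015 CPM in the C57BL6-BALB/c WT library and 15382 CPM in the C57BL6 WT library. Reads can be counted repeatedly, so the sums compare libraries within a list and do not compare cell types with each other. In bulk RNA, fewer cells of a type and less RNA per cell cannot be told apart.

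Gja1 itself (ENSMUSG00000050953, chr10:56377330-56402513, GRCm38, plus strand) had 2574 reads in the Cx43-deleted library, 4276 in the C57BL6-BALB/c WT library and 5138 in the C57BL6 WT library. This came to 48.0 CPM in the Cx43-deleted library, 202 CPM in the C57BL6-BALB/c WT library and 202 CPM in the C57BL6 WT library. The level was thus 4.20-fold lower in the Cx43-deleted library than in the WT library of the same background (interval 4.001 to 4.415) and 4.22-fold lower than in the C57BL6 WT library (4.02 to 4.42). The Cx43-deleted library kept reads along the whole transcript. Of the 2882 bases of exon 2, which holds the coding sequence, at least 2876 (99.8%) were covered by a read in the Cx43-deleted library, so that transcripts with this exon were still present in the preparation.

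Of the 10 neighbours, Fabp7 was past 2-fold against both WT libraries, and its level was lower in the Cx43-deleted library. It was 1 of 10 neighbours at least 2-fold lower than in the C57BL6-BALB/c WT library, where 1.01% of all measured genes were (2.07% past 2-fold either way), and 1 of 10 against the C57BL6 WT library, where 2.91% were (4.46% either way). Lower than both at 2-fold were 0.379% of all measured genes. No neighbour differed by 2-fold between the C57BL6-BALB/c WT and the C57BL6 WT library, where 3.26% of genes did in either direction. With a threshold of 1.5-fold, 1 neighbour differed from the C57BL6-BALB/c WT library, as did 7.23% of all genes, and 2 differed from the C57BL6 WT library, as did 21% of all genes. At this threshold 1 differed between the WT libraries, as did 15.4% of genes, and 1 was beyond both WT libraries in the same direction, as were 3.52% of genes. Smpdl3a came next, at 62.3 CPM in the Cx43-deleted library, 70.6 CPM in the C57BL6-BALB/c WT library and 121 CPM in the C57BL6 WT library. Its larger difference thus lay between the C57BL6 WT library and both libraries of the mixed background. The remaining 8 genes had log2 ratios of -0.20 to 0.16 against the C57BL6-BALB/c WT library and of -0.45 to 0.27 against the C57BL6 WT library. The plot of the levels in each library shows all 10 genes and Gja1.

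**Figure D1:**
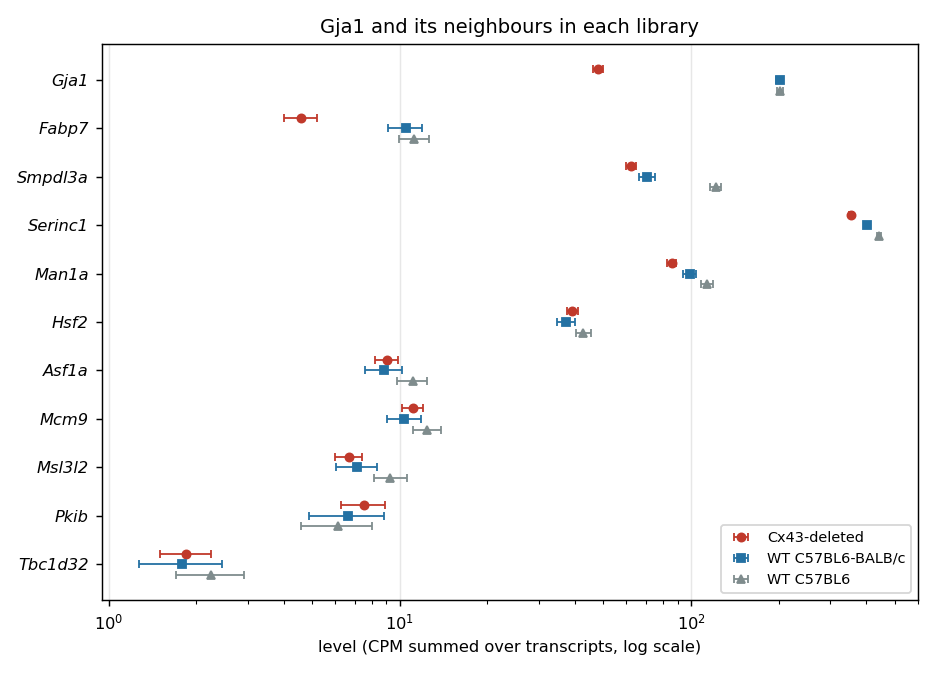
Level in CPM (log axis) of Gja1 and its 10 neighbours by library, with 1 point per library and bars for the 95% counting interval. Gja1 and Fabp7 are the genes whose Cx43-deleted point lies well below both WT points, at 48.0 and 4.57 CPM, and Smpdl3a stands high in the WT C57BL6 library at 121 CPM.

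The promoter windows of Gja1 and Fabp7 are shown because these were the genes of the 5 Mb window past 2-fold against both WT libraries. They are RefSeq windows of GRCm38.p6, running from 250 bases before to 50 bases after the annotated start, on the plus strand, 5′ to 3′. The Gja1 window is chr10:56377050-56377349 and the Fabp7 window is chr10:57784673-57784972. Capitals mark every match to 6 searched motifs on either strand, which were TATAAA (the TATA box), CCAAT (the CCAAT box), TGANTCA (an AP-1 site), GAANNTTC (the core of a heat shock element), GGGCGG (the GC box) and TGGGAA (the core of an Rbpj site).
Gja1: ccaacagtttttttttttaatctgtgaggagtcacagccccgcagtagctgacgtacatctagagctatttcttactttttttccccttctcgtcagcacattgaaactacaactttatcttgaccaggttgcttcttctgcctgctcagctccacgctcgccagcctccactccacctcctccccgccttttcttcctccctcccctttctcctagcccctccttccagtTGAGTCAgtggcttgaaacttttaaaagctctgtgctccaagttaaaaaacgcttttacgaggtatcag
Fabp7: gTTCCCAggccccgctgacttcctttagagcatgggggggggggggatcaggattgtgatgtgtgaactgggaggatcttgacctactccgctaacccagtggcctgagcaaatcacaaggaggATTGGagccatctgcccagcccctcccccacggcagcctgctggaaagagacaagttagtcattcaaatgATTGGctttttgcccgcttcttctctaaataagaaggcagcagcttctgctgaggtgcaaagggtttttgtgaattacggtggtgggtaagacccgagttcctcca

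The Gja1 window held 1 match, TGANTCA, which begins 19 bases before the start and is found in 7.81% of the 32851 windows of the table. The Fabp7 window held CCAAT as its reverse complement 126 and 56 bases before the start, a motif present in 37.4% of windows. It also held TGGGAA as its reverse complement 249 bases before the start, present in 25.6% of windows. No motif was found in both windows, and neither held the TATA box, the GC box or the heat shock core in these bases. A window was given for 7 of the 10 neighbours, without Serinc1, Smpdl3a and Tbc1d32. The windows of Hsf2, Man1a, Mcm9 and Asf1a were 69.0% to 72.7% G and C, against 54.0% for Fabp7, 47.7% for Gja1 and a median of 52.7% over all windows. No motif match is a measured site, and the strain sequence of these mice was not analysed here.

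Fabp7 (ENSMUSG00000019874, chr10:57784881-57788450, plus strand) encodes the brain fatty acid binding protein, a carrier of long-chain polyunsaturated fatty acids that marks radial glia and is also made by astrocytes. Its start lies 1.41 Mb beyond that of Gja1. It had 245 reads in the Cx43-deleted library, 222 in the C57BL6-BALB/c WT library and 285 in the C57BL6 WT library, although the Cx43-deleted library was the deepest. The levels were 4.57 CPM in the Cx43-deleted library, 10.5 CPM in the C57BL6-BALB/c WT library and 11.2 CPM in the C57BL6 WT library. The Cx43-deleted level was 2.29-fold lower than in the C57BL6-BALB/c WT library (interval 1.90 to 2.76) and 2.46-fold lower than in the C57BL6 WT library (2.06 to 2.93). The C57BL6-BALB/c WT level was 0.933 times the C57BL6 WT level, with an interval of 0.780 to 1.12 that holds 1. Of all measured genes, 0.801% had a lower log2 ratio than Fabp7 against the C57BL6-BALB/c WT library, and 1.35% had one against the C57BL6 WT library. Reads covered most of its 762 bases in each library, with 18 uncovered bases in the Cx43-deleted library, 11 in the C57BL6-BALB/c WT library and 31 in the C57BL6 WT library.

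Markers of the glial cells that make Fabp7 were compared with it. Its log2 ratio was below that of all 18 astrocyte markers in both comparisons. It was also below that of all 8 markers of radial glia and progenitors. Against the C57BL6 WT library this was only just so, at -1.209 for Fabp7 beside -1.201 for Nes. The Nes fold there, 0.434, lies inside the counting interval of the Fabp7 fold, 0.342 to 0.485, so these genes did not differ beyond counting error. The astrocyte markers had median log2 ratios of -0.15 against the C57BL6-BALB/c WT library and -0.29 against the C57BL6 WT library, and relative to these medians Fabp7 was at -0.97 and -0.92. The radial glia and progenitor markers had lower medians, -0.45 against the C57BL6-BALB/c WT library and -0.33 against the C57BL6 WT library. Nes, the intermediate filament of radial glia and of growing vessels, was the nearest of these 8, at 101 CPM in the Cx43-deleted library, 183 CPM in the C57BL6-BALB/c WT library and 233 CPM in the C57BL6 WT library. Hes5, a Notch target of radial glia, was at 9.58 CPM in the Cx43-deleted library, above the 6.27 CPM of the C57BL6-BALB/c WT library and the 6.30 CPM of the C57BL6 WT library. Nes and Hes5 were picked out after their values were seen. The 8 progenitor markers summed to 1169 CPM in the Cx43-deleted library, 1700 CPM in the C57BL6-BALB/c WT library and 1765 CPM in the C57BL6 WT library, in large part from Vim, which vascular cells also express. What part a change in glial cell content has in the Fabp7 difference was not tested.

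Smooth muscle and fibroblast markers were also lower in the Cx43-deleted library. The 6 fibroblast markers, all lower than in both WT libraries, summed to 365 CPM in the Cx43-deleted library, 436 CPM in the C57BL6-BALB/c WT library and 517 CPM in the C57BL6 WT library. Their median log2 ratio was -0.28 against the C57BL6-BALB/c WT library and -0.54 against the C57BL6 WT library, both nearer 0 than that of Fabp7. The 8 smooth muscle markers summed to 1991 CPM in the Cx43-deleted library, 3428 CPM in the C57BL6-BALB/c WT library and 2619 CPM in the C57BL6 WT library. Their median log2 ratio was -0.86 against the C57BL6-BALB/c WT library and -0.44 against the C57BL6 WT library, and 1 of the 8 had a lower ratio than Fabp7 in the comparison with the C57BL6-BALB/c WT library. In the comparison with the C57BL6 WT library 3 of 14 endothelial and 1 of 8 oligodendrocyte markers had a lower ratio than Fabp7. Between the C57BL6-BALB/c WT and C57BL6 WT libraries the smooth muscle markers differed by a median of 0.54 and the fibroblast markers by -0.29, while Fabp7 differed by -0.10. The part of these cells in the Fabp7 difference was not tested. Among the other fatty acid binding proteins, 4 of 10 listed genes were measured, Fabp7 included. Fabp5, the epidermal form, was at 14.2 CPM in the Cx43-deleted library, 12.9 CPM in the C57BL6-BALB/c WT library and 13.9 CPM in the C57BL6 WT library, close to level. Fabp4, the form of adipocytes and capillary endothelium, was at 2.01 CPM in the Cx43-deleted library, 0.519 CPM in the C57BL6-BALB/c WT library and 0.984 CPM in the C57BL6 WT library. The reads behind this were 108 in the Cx43-deleted library, 11 in the C57BL6-BALB/c WT library and 25 in the C57BL6 WT library, which is few in both WT libraries. Fabp3, the heart form, was at 1.08 CPM in the Cx43-deleted library, 1.51 CPM in the C57BL6-BALB/c WT library and 0.905 CPM in the C57BL6 WT library. Of these 4 genes 1, Fabp7, was lower than both WT libraries, as were 35.6% of all measured genes. Fabp4 reached 1 CPM in the Cx43-deleted library alone, so it could not come out lower there.

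**Figure D2:**
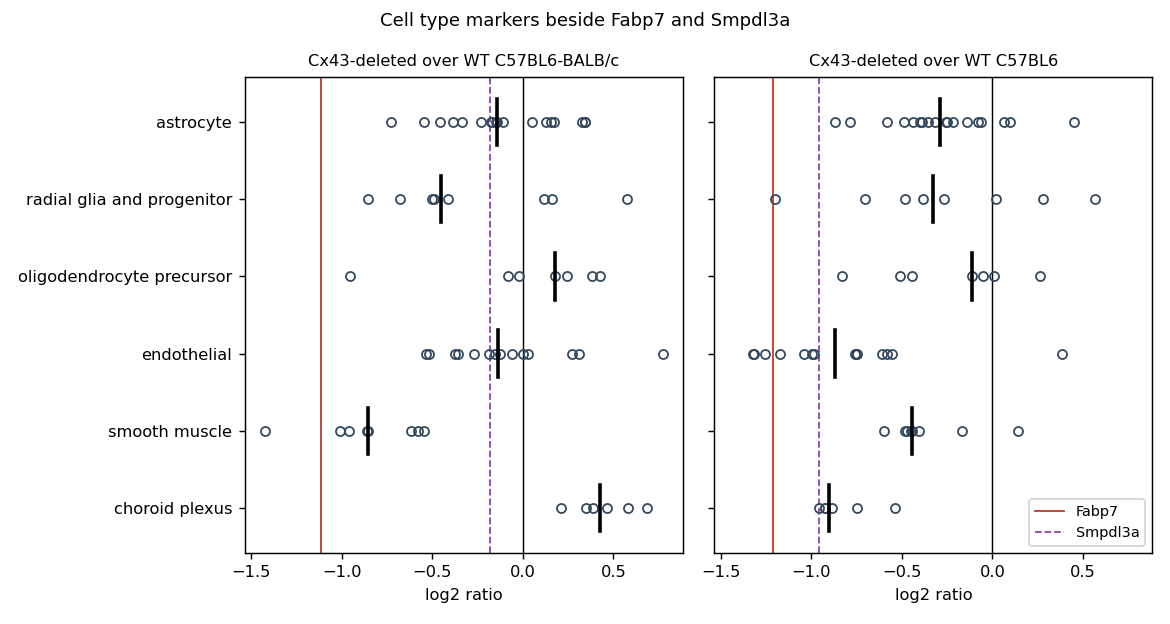
The log2 ratio of the Cx43-deleted library over each WT library (horizontal axis) for markers of 6 cell types, with 1 circle per marker and a black bar at the median, and vertical lines at Fabp7 (solid) and Smpdl3a (dashed). Fabp7 lies left of all 18 astrocyte and all 8 radial glia markers in both panels, with Nes almost level with it over the WT C57BL6 library. Smpdl3a lies near the endothelial median in both.

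Smpdl3a (ENSMUSG00000019872, chr10:57794335-57811830, plus strand) is the next listed gene after Fabp7, and encodes a phosphodiesterase related to acid sphingomyelinase that cleaves nucleotides. Its most abundant transcript had 2286 reads in the Cx43-deleted library, 1048 in the C57BL6-BALB/c WT library and 2185 in the C57BL6 WT library. On this transcript the Cx43-deleted level was 1.16-fold lower than in the C57BL6-BALB/c WT library (interval 1.08 to 1.25) and 2.02-fold lower than in the C57BL6 WT library (1.90 to 2.14). The C57BL6-BALB/c WT level was in turn 1.74-fold lower than the C57BL6 WT level (1.62 to 1.88). Summed over its 3 transcripts, the log2 ratio of the Cx43-deleted library was -0.18 over the C57BL6-BALB/c WT library and -0.96 over the C57BL6 WT library, so that by the gene sum it stayed inside 2-fold and by the main transcript it was just past it. The C57BL6-BALB/c WT over C57BL6 WT log2 ratio of the sum was -0.78. Both libraries of the mixed background were low, with the Cx43-deleted one the lower of them.

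The medians of the endothelial markers lay near the Smpdl3a ratios, with a wide spread among the markers. The median log2 ratios were -0.14 for the Cx43-deleted over the C57BL6-BALB/c WT library, -0.87 for the Cx43-deleted over the C57BL6 WT library and -0.70 for the C57BL6-BALB/c WT over the C57BL6 WT library. Relative to these medians Smpdl3a was at -0.04 and -0.09 for the Cx43-deleted over the C57BL6-BALB/c WT and over the C57BL6 WT library, and at -0.08 for the C57BL6-BALB/c WT over the C57BL6 WT library. Against the C57BL6-BALB/c WT library 9 of the 14 markers were lower and 5 higher, with log2 ratios of -0.53 to 0.77, and their summed CPM, given above, was higher in the Cx43-deleted library. Slc2a1, the glucose transporter of brain endothelium, picked out after its values were seen, was at 2828 CPM in the Cx43-deleted library, 1653 CPM in the C57BL6-BALB/c WT library and 2162 CPM in the C57BL6 WT library, unlike Smpdl3a. Against the C57BL6 WT library 13 of the 14 were lower in the Cx43-deleted library, and all 14 were lower in the C57BL6-BALB/c WT library. The 8 pericyte markers had medians of 0.05 for the Cx43-deleted over the C57BL6-BALB/c WT library, -0.71 for the Cx43-deleted over the C57BL6 WT library and -0.70 for the C57BL6-BALB/c WT over the C57BL6 WT library. The 6 choroid plexus markers had medians of 0.43, -0.90 and -1.35 in the same comparisons. The medians of these 3 cell types were thus below 0 where the C57BL6 WT library was the divisor. So were the medians of the astrocyte, fibroblast, microglia, oligodendrocyte and oligodendrocyte precursor markers, while those of the neuron markers were 0.26 and 0.31. What part any of these cells had in the Smpdl3a difference was not tested. The sphingomyelinase family held 7 measured genes, of which none was past 2-fold in any comparison by the gene sum. Smpd4, a neutral sphingomyelinase with the highest CPM of them, was at 829 CPM in the Cx43-deleted library, 750 CPM in the C57BL6-BALB/c WT library and 576 CPM in the C57BL6 WT library.

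Serinc1 and Man1a were lower in the Cx43-deleted library by small amounts that exceeded counting error. Serinc1 (ENSMUSG00000019877, chr10:57515774-57532530, minus strand), a membrane protein of the serine incorporator family, was the neighbour with the most reads, 19038 in the Cx43-deleted library, 8561 in the C57BL6-BALB/c WT library and 11232 in the C57BL6 WT library. Its levels were 355 CPM in the Cx43-deleted library, 404 CPM in the C57BL6-BALB/c WT library and 442 CPM in the C57BL6 WT library. The Cx43-deleted folds were 0.879 against the C57BL6-BALB/c WT library (interval 0.857 to 0.902) and 0.803 against the C57BL6 WT library (0.784 to 0.822). Every base of its transcript was covered in each library. The Serinc family had 5 measured members and none past 2-fold. Serinc3, with the highest CPM of them, was at 1020 CPM in the Cx43-deleted library, 802 CPM in the C57BL6-BALB/c WT library and 1081 CPM in the C57BL6 WT library.

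Man1a (ENSMUSG00000003746, chr10:53904785-54076609, minus strand), the Golgi mannosidase that trims high-mannose N-glycans, lies 2.30 Mb before Gja1. It was at 86.0 CPM in the Cx43-deleted library, 98.9 CPM in the C57BL6-BALB/c WT library and 114 CPM in the C57BL6 WT library, over 5 transcripts. The most abundant transcript gave folds of 0.852 (interval 0.799 to 0.909) against the C57BL6-BALB/c WT library and 0.775 (0.730 to 0.822) against the C57BL6 WT library. Serinc1 and Man1a thus had the same order, with the Cx43-deleted library lowest and the C57BL6 WT library highest. Their log2 ratios, -0.19 and -0.20 against the C57BL6-BALB/c WT library, stood beside an astrocyte marker median of -0.15 and an endothelial median of -0.14. Against the C57BL6 WT library Serinc1 was at -0.32 and Man1a at -0.40. Several marker medians lay near these values there. They were -0.29 for astrocytes, -0.33 for radial glia and progenitors, -0.35 for oligodendrocytes, -0.39 for microglia and -0.44 for smooth muscle. The endothelial median was -0.87 and the neuron median 0.26. What part any of these cells had in the Serinc1 and Man1a differences was not tested. None of the 12 measured genes of N-glycan trimming and early branching was past 2-fold in any comparison. Mgat1, which adds the first branch after this trimming and had the highest CPM of them, was at 360 CPM in the Cx43-deleted library, 391 CPM in the C57BL6-BALB/c WT library and 391 CPM in the C57BL6 WT library.

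Hsf2 (ENSMUSG00000019878, chr10:57486385-57513135, plus strand), heat shock factor 2, which binds heat shock elements together with Hsf1 and acts in brain and germ cell development, was at 39.1 CPM in the Cx43-deleted library, 37.2 CPM in the C57BL6-BALB/c WT library and 42.6 CPM in the C57BL6 WT library. The Cx43-deleted level was 1.05 times that of the C57BL6-BALB/c WT library (interval 0.967 to 1.14) and 0.916 times that of the C57BL6 WT library (0.851 to 0.987). The Cx43-deleted library stood between the WT libraries. Of 17 measured heat shock factors and targets, Hspa8 alone was past 2-fold against both WT libraries, at 38.9 CPM in the Cx43-deleted library, 155 CPM in the C57BL6-BALB/c WT library and 219 CPM in the C57BL6 WT library. Hspa8, a constitutive chaperone, has near-identical processed copies in the genome, so its counts are uncertain. Fkbp4, a cochaperone of Hsp90 with the highest CPM of the list, was at 224 CPM in the Cx43-deleted library, 253 CPM in the C57BL6-BALB/c WT library and 323 CPM in the C57BL6 WT library.

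Asf1a and Mcm9 overlap on opposite strands, and the library kit does not keep the strand of a read. Of the exon bases of the main Asf1a transcript, 1515 (68.8%) were shared with annotated exons of Mcm9, so that the Asf1a count can hold Mcm9 reads there. The Mcm9 transcript that was counted is another one, and 0 of its exon bases were shared with another gene. Asf1a (ENSMUSG00000019857, chr10:53596757-53609225, plus strand), a chaperone that hands histones H3 and H4 to other assembly factors, was at 9.02 CPM in the Cx43-deleted library, 8.82 CPM in the C57BL6-BALB/c WT library and 11.1 CPM in the C57BL6 WT library. Mcm9 (ENSMUSG00000058298, chr10:53536315-53630439, minus strand), a helicase protein of recombination repair needed in mouse germ cells, was at 11.1 CPM in the Cx43-deleted library, 10.4 CPM in the C57BL6-BALB/c WT library and 12.4 CPM in the C57BL6 WT library. Both genes were within counting error between the Cx43-deleted and C57BL6-BALB/c WT libraries, with folds of 1.02 (interval 0.863 to 1.22) for Asf1a and 1.07 (0.913 to 1.25) for Mcm9. The sign of the Asf1a ratio in this comparison turned when levels were scaled by the library total alone. Against the C57BL6 WT library the Cx43-deleted folds were 0.816 (0.703 to 0.948) for Asf1a and 0.890 (0.775 to 1.02) for Mcm9.

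Of the 9 measured MCM helicase genes, none was past 2-fold by log2 ratio against the C57BL6-BALB/c WT library, and 1, Mcm6 of the replicative helicase, was lower at 2-fold against the C57BL6 WT library. Over the C57BL6-BALB/c WT library the Mcm6 log2 ratio, with its pseudocount, was 0.954. The fold of its main transcript, without a pseudocount, was just past 2-fold, at 2.045 (interval 1.633 to 2.586). Mcm6 was at 8.87 CPM in the Cx43-deleted library, 4.34 CPM in the C57BL6-BALB/c WT library and 18.9 CPM in the C57BL6 WT library, and was picked out after its values were seen. The 13 measured chaperones of H3 and H4 had no member past 2-fold in either comparison of the Cx43-deleted library. Cabin1, a partner of the HIRA complex and 1 of the 3 genes of the list with the highest CPM, was at 287 CPM in the Cx43-deleted library, 262 CPM in the C57BL6-BALB/c WT library and 209 CPM in the C57BL6 WT library.

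Msl3l2 and Tbc1d32 are the listed genes nearest to Gja1. Msl3l2 (ENSMUSG00000047669, chr10:56106917-56116880, plus strand), a relative of the chromatin gene Msl3, starts 0.270 Mb before Gja1 and lies inside the span of Tbc1d32 on the opposite strand. It had 358 reads in the Cx43-deleted library, 151 in the C57BL6-BALB/c WT library and 236 in the C57BL6 WT library. The levels were 6.67 CPM in the Cx43-deleted library, 7.12 CPM in the C57BL6-BALB/c WT library and 9.29 CPM in the C57BL6 WT library. The Cx43-deleted fold was 0.937 (interval 0.773 to 1.14) against the C57BL6-BALB/c WT library and 0.718 (0.608 to 0.850) against the C57BL6 WT library, while the C57BL6-BALB/c WT library had 0.767 times (0.621 to 0.944) the C57BL6 WT level. The C57BL6 WT library was thus above both libraries of the mixed background. None of the 5 measured genes of the MSL complex list was past 2-fold in any comparison, and Msl3, 1 of the 3 genes of the list with the highest CPM, was at 69.8 CPM in the Cx43-deleted library, 76.0 CPM in the C57BL6-BALB/c WT library and 79.8 CPM in the C57BL6 WT library.

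Tbc1d32 (ENSMUSG00000038122, chr10:56014293-56228689, minus strand), a cilium protein that Hedgehog signalling needs in the mouse neural tube, has its start 0.149 Mb before that of Gja1. It had 99 reads in the Cx43-deleted library, 38 in the C57BL6-BALB/c WT library and 57 in the C57BL6 WT library. The levels were 1.85 CPM in the Cx43-deleted library, 1.79 CPM in the C57BL6-BALB/c WT library and 2.24 CPM in the C57BL6 WT library. The Cx43-deleted fold was 1.03 (interval 0.702 to 1.54) against the C57BL6-BALB/c WT library and 0.823 (0.588 to 1.16) against the C57BL6 WT library, and both intervals hold 1. A difference smaller than these bounds was not detectable at this depth. Tbc1d32 was counted on a model of 2387 bases, of which 23.9% in the Cx43-deleted library, 53.7% in the C57BL6-BALB/c WT library and 42.9% in the C57BL6 WT library had no read. The annotation used here for positions gives this transcript 7240 bases, so its counts and coverage rest on a shorter model. None of the 12 measured Hedgehog and cilium genes was past 2-fold in any comparison. Ift88, a carrier of intraflagellar transport and 1 of the 3 genes of the list with the highest CPM, was at 97.9 CPM in the Cx43-deleted library, 96.6 CPM in the C57BL6-BALB/c WT library and 74.1 CPM in the C57BL6 WT library.

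Pkib (ENSMUSG00000019876, chr10:57631981-57741112, plus strand), an inhibitor of protein kinase A, was the 1 neighbour that was higher in the Cx43-deleted library than in both WT libraries. Its most abundant transcript had 135 reads in the Cx43-deleted library, 47 in the C57BL6-BALB/c WT library and 52 in the C57BL6 WT library. The folds were 1.14 (interval 0.809 to 1.62) against the C57BL6-BALB/c WT library and 1.23 (0.887 to 1.73) against the C57BL6 WT library, and both intervals hold 1. Of the transcript's bases 50.5% were without a read in the Cx43-deleted library, against 75.1% in both WT libraries, which makes Pkib the neighbour with the thinnest coverage. Its 3 transcripts carry nearly the same reads, so the summed levels of 7.51 CPM in the Cx43-deleted library, 6.65 CPM in the C57BL6-BALB/c WT library and 6.14 CPM in the C57BL6 WT library count reads repeatedly. None of the 9 measured genes of protein kinase A and its inhibitors was past 2-fold in any comparison. Prkar1a, a regulatory subunit with the highest CPM of them, was at 1014 CPM in the Cx43-deleted library, 1029 CPM in the C57BL6-BALB/c WT library and 1218 CPM in the C57BL6 WT library.

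**Figure D3:**
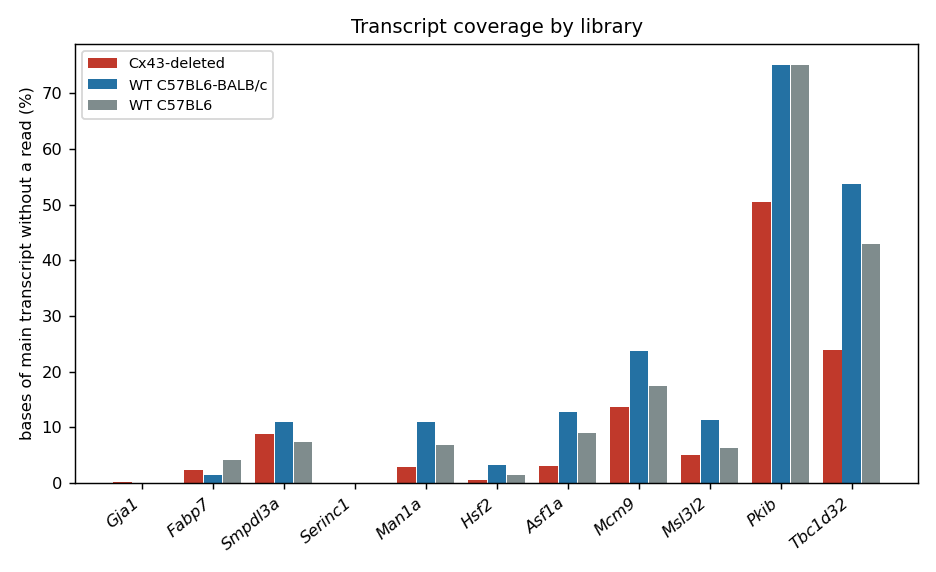
Percent of transcript bases without a read (vertical axis) for the most abundant transcript of Gja1 and each neighbour, by library. Pkib and Tbc1d32 stand apart, with 50.5% and 23.9% of bases uncovered in the Cx43-deleted library, and Gja1 was covered almost fully in it.

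Set side by side, the 10 neighbours split evenly against the WT library of the same background and leaned low against the other. In the Cx43-deleted library 5 were lower and 5 higher than in the C57BL6-BALB/c WT library, where 49.5% of all measured genes were lower. Against the C57BL6 WT library 9 of 10 were lower, where 52.9% of all genes were. The C57BL6-BALB/c WT library was also lower than the C57BL6 WT library for 9 of 10, where 53.3% of all genes were. These comparisons share libraries, so the counts are not separate evidence. The C57BL6 WT library had the highest level for 9 of the 10 neighbours, Pkib being the exception, and for 43.8% of all measured genes.

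Of the neighbours, 5 (Fabp7, Serinc1, Smpdl3a, Msl3l2 and Man1a) were lower in the Cx43-deleted library than in both WT libraries, where 35.6% of all genes were, and 1 was higher than in both, where 33.2% were. The counting interval left out 1 for 4 neighbours against the C57BL6-BALB/c WT library, which were Serinc1, Fabp7, Smpdl3a and Man1a, all lower. Of all measured genes, 23.6% were lower in this way and 48.9% differed in either direction. It left out 1 for 7 neighbours against the C57BL6 WT library, also all lower, where 38% of all genes were lower and 69.8% differed in either direction. For the C57BL6-BALB/c WT over the C57BL6 WT library it left out 1 for 7, all lower, where 32.9% of all genes were lower and 59.9% differed in either direction. The median log2 ratio of the neighbours was -0.03 against the C57BL6-BALB/c WT library and -0.30 against the C57BL6 WT library, with 0.003 and -0.03 over all measured genes. The C57BL6-BALB/c WT over C57BL6 WT median was -0.23 for the neighbours and -0.03 for all genes. The size of a typical difference was near that of all genes, with a median absolute log2 ratio of 0.13 for the neighbours and 0.16 for all genes against the C57BL6-BALB/c WT library. Against the C57BL6 WT library it was 0.30 for the neighbours and 0.31 for all genes.

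**Figure D4:**
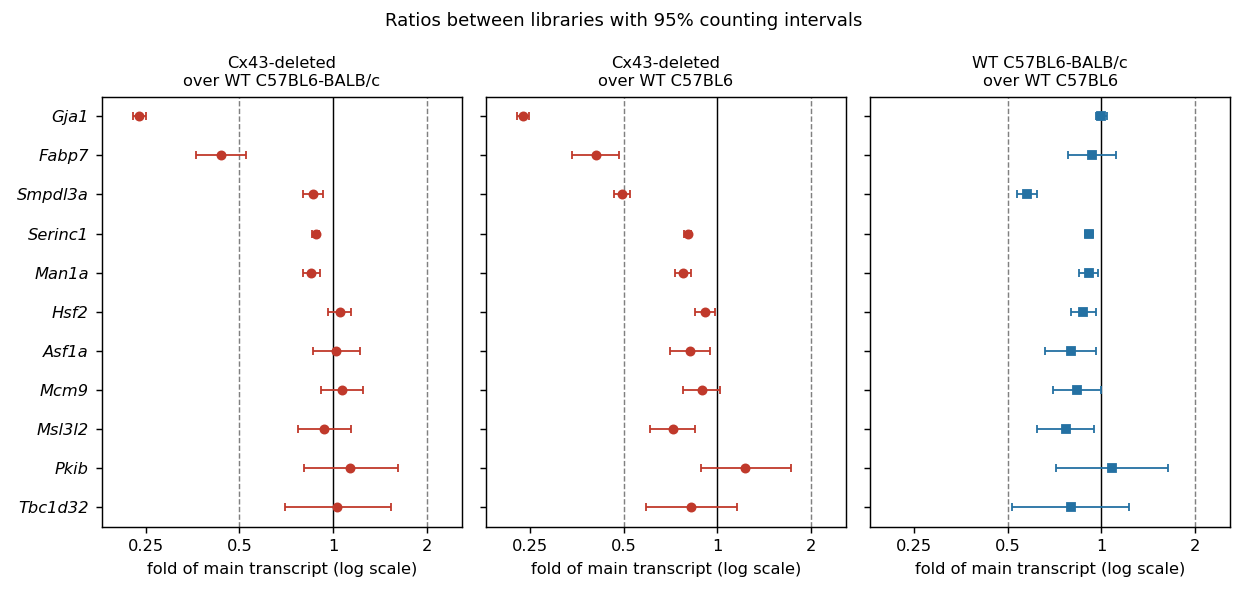
Fold of the most abundant transcript (log axis) with its 95% counting interval for Gja1 and the 10 neighbours, for the Cx43-deleted over each WT library and the WT C57BL6-BALB/c over the WT C57BL6 library. The intervals of Gja1 and Fabp7 lie far below 1 in both comparisons of the Cx43-deleted library and near or across 1 between the WT libraries, whereas Smpdl3a lies well below 1 where the WT C57BL6 library is the divisor.

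Levels of different genes were compared as reads per kb of transcript and 1000000 library reads. Serinc1 was highest on this scale, at 126 in the Cx43-deleted library, 143 in the C57BL6-BALB/c WT library and 157 in the C57BL6 WT library, and Pkib was lowest, at 0.467 in the Cx43-deleted library, 0.411 in the C57BL6-BALB/c WT library and 0.379 in the C57BL6 WT library. In both WT libraries the neighbours followed the order Serinc1, Smpdl3a, Hsf2, Fabp7, Man1a, Asf1a, Msl3l2, Mcm9, Tbc1d32 and Pkib. In the Cx43-deleted library 1 pair had changed places, Fabp7 standing below Man1a. Fabp7 was at 5.99 on this scale there (interval 5.27 to 6.79), against 10.7 for Man1a (10.3 to 11.1). In the C57BL6-BALB/c WT library Fabp7 was at 13.7 (11.99 to 15.67) and Man1a at 12.5 (11.9 to 13.2), and in the C57BL6 WT library Fabp7 was at 14.7 (13.1 to 16.5) and Man1a at 13.8 (13.1 to 14.4), so that in neither did this pair differ beyond counting error. Hsf2 and Fabp7, also next to each other, had intervals that overlap in both WT libraries. Tbc1d32 and Pkib had intervals that overlap in the C57BL6-BALB/c WT library, and the other neighbouring pairs of this order had intervals that did not overlap in any library, apart from Asf1a and Msl3l2, whose intervals overlap in both WT libraries.

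The wider surroundings of Gja1 held 56 other protein-coding genes that start within 5 Mb of it, and 43 of them were measured, the neighbours included. Their median log2 ratio was -0.09 against the C57BL6-BALB/c WT library and -0.16 against the C57BL6 WT library, with 0.002 and -0.04 for the 14772 measured protein-coding genes elsewhere. Fabp7 was the 1 gene of 43 that was past 2-fold from both WT libraries in the same direction, while 0.724% of the genes elsewhere were. Against the C57BL6-BALB/c WT library 3 of the 43 were past 2-fold, against 1.91% elsewhere, and against the C57BL6 WT library 3 were, against 4.33% elsewhere. The C57BL6-BALB/c WT over C57BL6 WT comparison had 2, against 3.12% elsewhere. The listed genes on either side of Fabp7 had log2 ratios nearer 0 against the C57BL6-BALB/c WT library, 0.16 for Pkib and -0.18 for Smpdl3a. Against the C57BL6 WT library Pkib was at 0.27 and Smpdl3a at -0.96, beside -1.21 for Fabp7.

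The other genes past 2-fold in the 5 Mb window were picked out after their values were seen. Pln, a regulator of the calcium pump in muscle, was at 36.5 CPM in the Cx43-deleted library, 79.9 CPM in the C57BL6-BALB/c WT library and 71.1 CPM in the C57BL6 WT library. It shares 64.8% of its exon bases with another gene, and the smooth muscle markers were also lower, as given above, whose part in the Pln difference was not tested. Unc5b, a netrin receptor of vessels, was at 38.8 CPM in the Cx43-deleted library, 60.3 CPM in the C57BL6-BALB/c WT library and 97.8 CPM in the C57BL6 WT library. Ddit4, a stress-induced inhibitor of mTOR, was at 171 CPM in the Cx43-deleted library, 68.4 CPM in the C57BL6-BALB/c WT library and 177 CPM in the C57BL6 WT library, so that the C57BL6-BALB/c WT library was the low one. Prf1, the perforin of cytotoxic lymphocytes, had 13 reads in the Cx43-deleted library, 4 in the C57BL6-BALB/c WT library and 28 in the C57BL6 WT library. It reached 1 CPM in the C57BL6 WT library alone, at 1.10 CPM, so it could only come out lower in the others. It is among the genes counted above as past 2-fold where the C57BL6 WT library was the divisor.

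**Figure D5:**
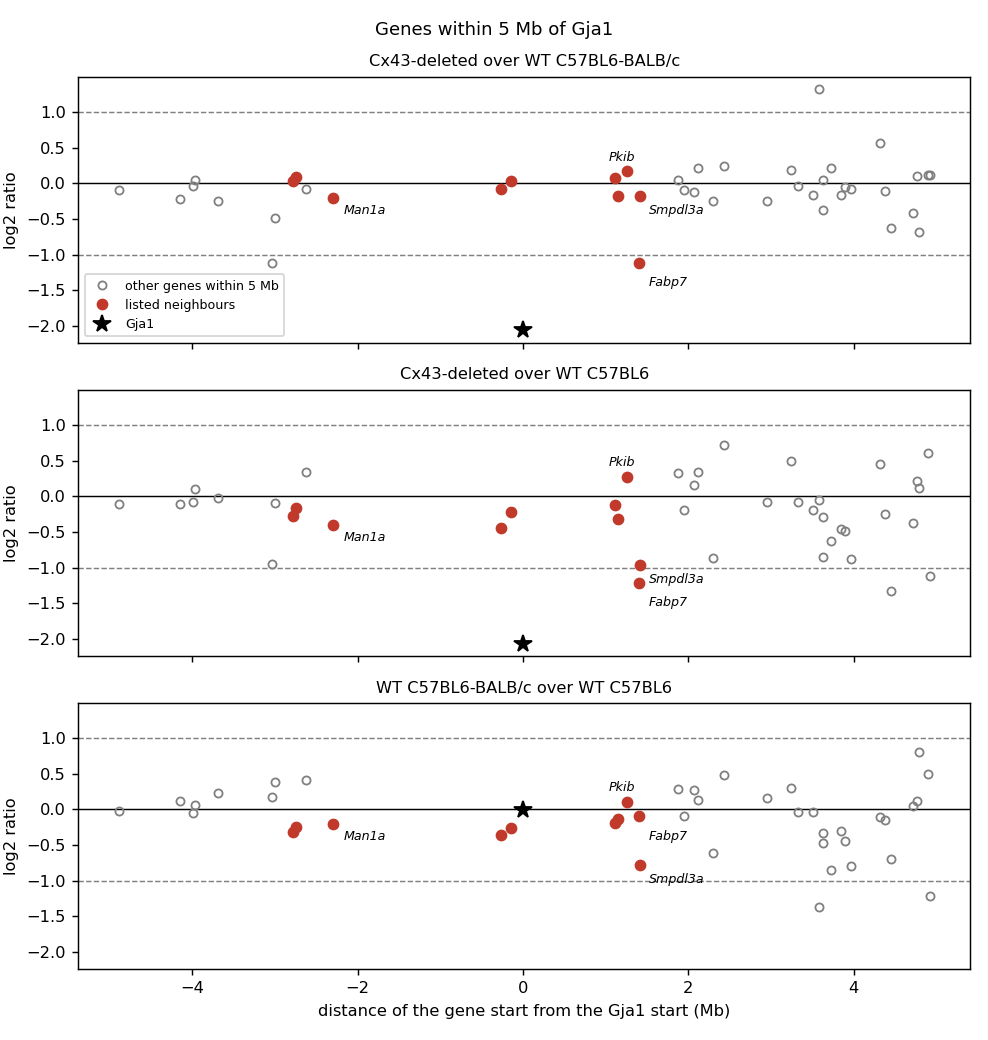
The log2 ratio of each measured protein-coding gene (vertical axis) against the distance of its start from that of Gja1 in Mb (horizontal axis), with 1 panel per comparison. Fabp7, at 1.41 Mb, lies below -1 in both comparisons of the Cx43-deleted library and near 0 between the WT libraries, while Smpdl3a beside it is low wherever the WT C57BL6 library is the divisor.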

How the data were processed

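PolyA+ RNA libraries had been prepared with an Illumina TruSeq RNA v2 kit, per the labels' protocols, a kit that does not mark strand. CASAVA 1.8.2, Bowtie and mm10 are named per the submitters' processing notes. Other steps, the counting program among them, are not stated in the sources used here. The deposited files give, for each of 82813 transcripts, a whole read count, a length, the bases without a read and a fraction, which the authors computed as the count over the library's reads. The transcript coordinates in the files reach base 197054592 of chromosome 1, beyond the last gene of GRCm38 (195323493), so they were not used, and positions are from GENCODE M21 (GRCm38). Of the transcripts, 69379 (83.8%) were matched by ID, 217 that matched on another chromosome were left out, and 13434 were not matched. A read can be counted on several transcripts: counts summed to 2.55 times the library reads in the Cx43-deleted library, 2.53 times in the C57BL6-BALB/c WT library and 2.45 times in the C57BL6 WT library.

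Levels (CPM) are counts summed over the transcripts of a gene, per 1000000 library reads times the TMM factor (edgeR 4.0.16, R 4.3.3). The log2 ratios use a pseudocount of 0.5 CPM, and genes at 1 CPM or more in any library were kept. Folds compare the transcript with the most reads, with exact binomial 95% intervals (scipy 1.17.1). With 1 library per group no test was made. The scripts were checked on simulated data. Past 2-fold means a log2 ratio of 1 or more either way. The text names all 10 neighbours and Gja1, and of the families and surrounding genes those past 2-fold from both WT libraries and up to 3 genes with the highest CPM of a family (not per length), with markers beside them; exceptions are stated. The neighbours, gene families and markers were chosen with earlier results of these data known. Alternatives were other scaling (the library total alone, or DESeq2 1.42.0 size factors), pseudocounts, filters, single transcripts, transcripts sharing no exon base, thresholds and windows. The log2 ratios of the neighbours and Gja1 were also taken relative to the medians of the astrocyte, endothelial and smooth muscle markers.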

Additional observations from a re-analysis of the deposited data

How the results depend on the processing

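The counts past a threshold and the median log2 ratios of the neighbours and of the genes in the window were computed again under the alternatives. Of these values, 167 stayed the same and 21 moved. A count stayed the same if it was within 1.5 times its main value. A median stayed the same if it was inside the interval of its main value, taken from the ordered ratios of the genes. With a threshold of 1.5-fold, all measured genes past it numbered 1201 for the Cx43-deleted over the C57BL6-BALB/c WT library, 3481 for the Cx43-deleted over the C57BL6 WT library, 2557 for the C57BL6-BALB/c WT over the C57BL6 WT library and 584 beyond both WT libraries. Of the 43 genes within 5 Mb the same counts were 5, 11, 8 and 3, and of the 10 neighbours 2 were past it against the C57BL6 WT library and 1 between the WT libraries. With the library total alone, 5 of the 43 were past 2-fold against the C57BL6 WT library, 2 were so beyond both, and 2 neighbours were so against the C57BL6 WT library. Smpdl3a joined Fabp7 there, and it did so with the most abundant and with the longest transcript alone (2 neighbours each). A window of 2 Mb left 1, 1 and 0 genes past 2-fold for the Cx43-deleted over the C57BL6-BALB/c WT, the Cx43-deleted over the C57BL6 WT and the C57BL6-BALB/c WT over the C57BL6 WT library, and a window of 10 Mb gave 7 against the C57BL6 WT library. A pseudocount of 1 CPM and a filter at 5 CPM each left 1 between the WT libraries. Over the 8 settings of scaling, pseudocount and transcripts, the main one included, the log2 ratio of Fabp7 was past 2-fold in each. It ran from -1.18 to -1.04 against the C57BL6-BALB/c WT library and from -1.28 to -1.13 against the C57BL6 WT library. Relative to the astrocyte, endothelial and smooth muscle marker medians Fabp7 was inside 2-fold. It was then at -0.97, -0.98 and -0.26 against the C57BL6-BALB/c WT library, and at -0.92, -0.34 and -0.76 against the C57BL6 WT library. Over the same 8 settings the log2 ratio of Smpdl3a against the C57BL6 WT library ran from -1.03 to -0.93. In these settings signs turned for Asf1a against the C57BL6-BALB/c WT library (library total alone) and for Gja1 between the WT libraries (size factors), both near 0. Relative to the marker medians further signs turned. Against the C57BL6-BALB/c WT library Serinc1 was at 0.67 and Man1a at 0.66 relative to smooth muscle. Against the C57BL6 WT library they were at 0.55 and 0.47 relative to endothelium. Relative to astrocytes both stayed below 0 in both comparisons. The cause of the turned signs was not tested. Asf1a has no transcript free of shared exon bases, so that alternative gave it no value. No paired analysis was possible because each group has 1 library. Depth limits Tbc1d32 and Pkib most.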
